A study of Saccharomyces cerevisiae with 6 samples.

Results

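The transcripts described here are those of 39 genes of Saccharomyces cerevisiae that build or guard the cell wall: wall proteins, the enzymes that make and rework glucan and chitin, and the cell wall integrity pathway. They were chosen by name, with earlier results of these data known. Spots were found for 38 of the 39, out of 5539 genes measured, with 2 spots per gene and 76 spots in all. For 37 the platform's gene symbol was the listed name, and WSC1 was found through its gene identifier, since the platform calls it SLG1. GAS1 was not analysed here. The members fall into 10 wall proteins carried on a glycosylphosphatidylinositol (GPI) anchor, 4 Pir proteins, 3 genes for glucan synthesis, 3 chitin synthases, 9 measured genes for glucan remodelling and 8 genes of the integrity pathway. The last member, CRG1, encodes a methyltransferase known for protecting cells against cantharidin, and it was kept apart because it is not known as a wall component.

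Each of 6 two-colour arrays compared total RNA of a met4 deletion mutant, labelled with Cy3, with that of the wild type, labelled with Cy5. Mutant and wild type alike were kept for 1 hour in 0.2 mM arsenite, As(III), so the exposure is shared by both sides of every ratio and no unexposed cells were compared. Met4 is the transcriptional activator of sulfur amino acid synthesis, which also feeds glutathione, a thiol that binds arsenite. The arrays form 1 group of 6 replicates, and the labels do not give the strain background or say that separate cultures were used for the replicates. The p-values therefore measure the spread between arrays, which may be partly technical.

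The yeast wall is a mesh of glucan with a little chitin, covered by mannoproteins. GPI proteins are bound to it through a remnant of their anchor, and Pir proteins through alkali-labile bonds to glucan. Damage to the wall is sensed at the plasma membrane by Wsc1 and Mid2, and passes through the GTPase Rho1 to Pkc1 and a kinase cascade of Bck1, the redundant pair Mkk1 and Mkk2, and the MAP kinase Slt2. Slt2 activates the transcription factor Rlm1, which drives many wall genes, and also acts through the cell cycle factor Swi4.

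Values are log2 ratios, read as mutant over wild type, from which the median of all spots of the same array was subtracted. That direction is likely and not settled, because the sources used here do not state which channel is the numerator. It rests on the order of the 2 strains in the sample titles and on MET4 itself, which stood at -0.59 ± 0.25 (SD, n = 6) and below 0 on 6 of 6 arrays. Whether its spots lie within the deleted stretch is not given in the sources used here. For a deleted gene the ratio was small, 1.51-fold lower and at percentile 4.39 of all genes, and in the values as deposited it did not pass (limma, adjusted p = 0.600). "Higher" and "lower" carry that proviso. With the ratio turned, each would exchange with the other, folds would keep their size, and ranks from the top would be ranks from the bottom. The log base was taken as 2. The mutant carried Cy3 on every array, and uneven labelling of a gene by the dyes cannot be told apart from an effect of the mutation.

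Before centring, the array medians lay between -0.95 and 0.92, and the median over the means of all genes was 0.12 before and 0.0053 after it. The deposited median was below 0 on arrays 4 and 6 and above 0 on the other 4. Over all genes, array 2 resembled the rest least, with a mean r of 0.291 across genes, which are not independent replicates. The number of arrays limits the precision. The 2 spots of a member differed on a typical array by 0.0229 to 0.175 on the log2 scale, whereas the SD between arrays ran from 0.0725 for SCW10 to 0.817 for UTR2 with a median of 0.334, close to the 0.352 of all genes.

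In arsenite-exposed met4 mutant cells, transcripts of many of the members were higher than in the wild type. The members were chosen with earlier results of these data known, so their shares do not stand for wall genes at large. Further wall genes, counted below, mostly did not pass. Of the 38 members, 16 rose, 2 fell and 20 did not pass the test (limma against 0, Benjamini-Hochberg adjusted p under 0.05 over all 5539 genes). The share that rose was 42.1%, where 9.41% of all genes rose, and the share that fell was 5.26%, where 5.69% of all genes fell. With the ratio turned, 42.1% of members would have fallen, where 9.41% of all genes did, and 5.26% risen, where 5.69% did. The count of 16 was 9 with centring by print-order run, which left 850 calls over all genes beside 836, and 9 without array 5, which left 518. In either direction 15.1% of all genes passed. The highest members were the wall protein genes PST1 and CCW14, the Pir gene PIR3 and the glucan enzyme gene BGL2, each at least 2-fold higher, which was the case for 4 of 38 members or 10.5% and for 1.84% of all genes. BGL2 lay at the 2-fold limit. The 2 that fell were ECM33, the paralog of PST1, and SCW11, a glucanase gene of cell separation.

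The ratio had the same sign on all 6 arrays for 18 members, 47.4% of them, against 18.1% of all genes. These were the 16 that rose, SCW11, and SCW10, which did not pass. The median of the members' means was 0.26, beside 0.0053 for all genes. It was above 0 on 6 of 6 arrays, lowest on array 1 at 0.17 and highest on array 4 at 0.62. In the values as deposited, 5 of the members rose and 0 fell. The 5 were PST1, CCW14, PIR3, BGL2 and NCW2, which passed in all 15 alternatives with a test, with adjusted p of at most 0.0188. Arrays 4 and 6 alone were not tested. The other 13 calls were lost without centring, although the sizes stayed similar: as deposited, SED1 stood at 0.71 (0.60 centred), SLT2 at 0.77 (0.65), ECM33 at -0.55 (-0.66) and SCW11 at -0.44 (-0.55).

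**Figure D1:**
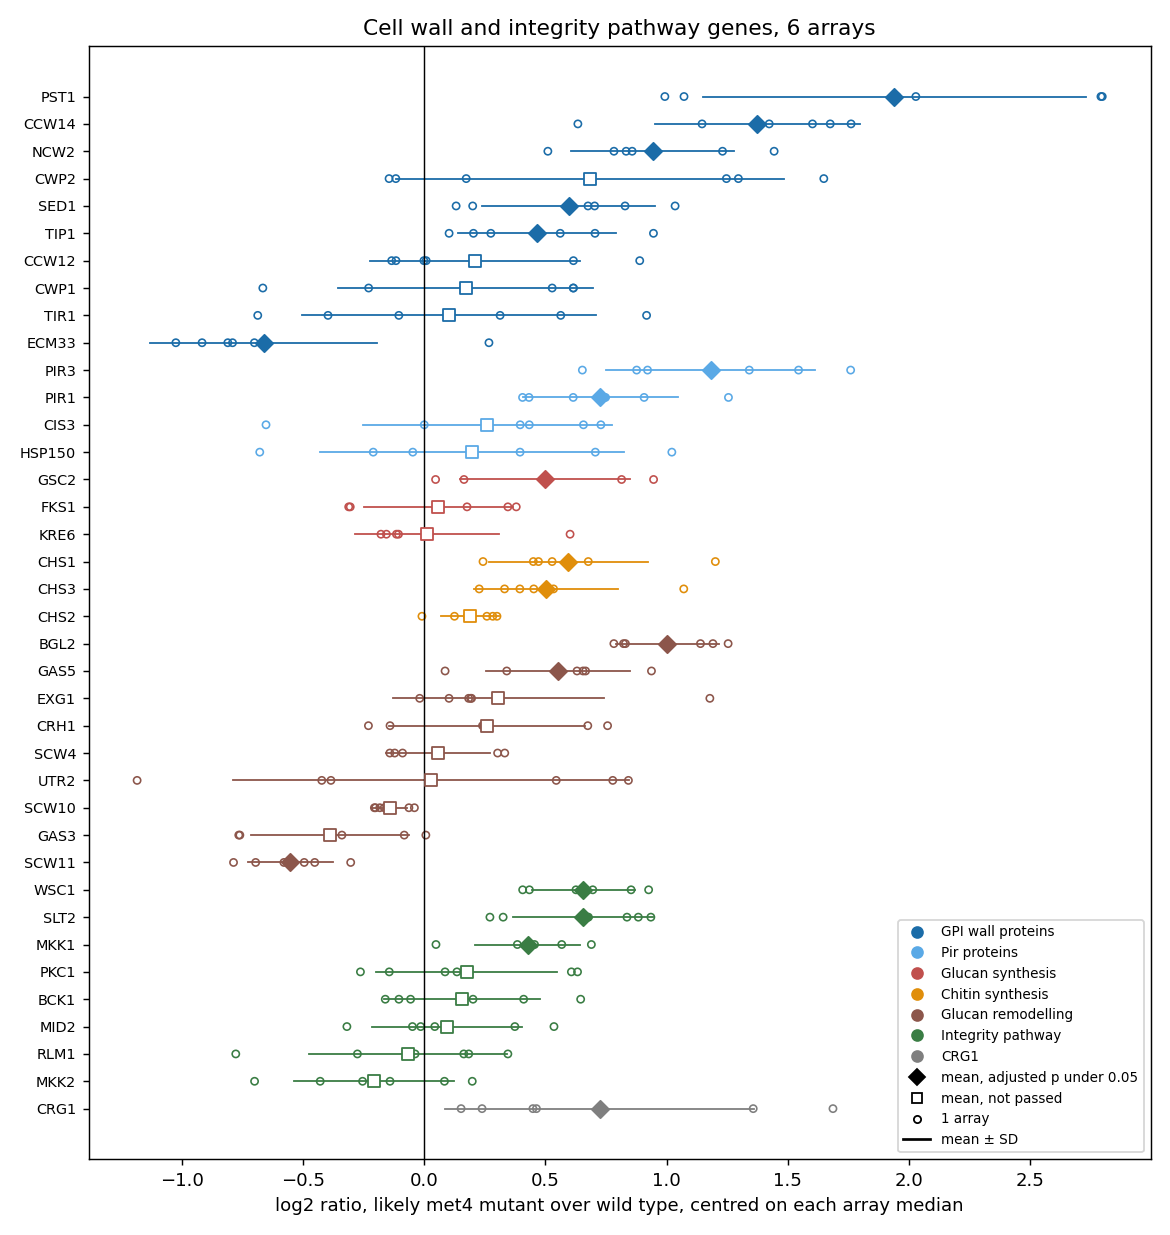
Centred log2 ratio (horizontal axis, likely mutant over wild type) of the 38 measured members, grouped and coloured by role. Open circles are the 6 arrays, bars the mean ± SD over them, filled diamonds means that passed the test and open squares means that did not. PST1 has the highest mean, 1.94, and ECM33 the lowest, -0.66.

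Among the GPI wall proteins, 5 of 10 rose, 1 fell and 4 did not pass, with a median of 0.53. PST1 (YDR055W), whose product is secreted by regenerating protoplasts and whose transcript is a classical reporter of wall stress, ran from 0.99 through a median of 1.99 to 2.80. Its lowest values were on arrays 1 and 2 and its highest on arrays 3 and 5. The mean was 1.94 ± 0.79 (SD, n = 6; limma, adjusted p = 0.000325), a 3.84-fold ratio that ranked it 8 from the top of all genes (8 from the bottom with the ratio turned).

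CCW14 (YLR390W-A), which encodes an abundant inner-wall glycoprotein, ran from 0.63 on array 1 to 1.76 on array 2, with a median of 1.51. All arrays but array 1 were above 1. Its mean was 1.37 ± 0.42 (adjusted p = 0.000265, 2.59-fold). NCW2 (YLR194C), a GPI protein of the wall, ran from 0.51 through 0.85 to 1.44, and was 1.92-fold higher at a mean of 0.94 ± 0.34 (adjusted p = 0.00158). Both genes stayed clear of 0 on every array.

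The other GPI protein genes that rose did so by less. SED1, a major wall protein of stationary cells, ran from 0.13 through 0.69 to 1.04, lowest on arrays 1 and 2, with a mean of 0.60 ± 0.36 (adjusted p = 0.0178). TIP1, a cold-shock induced mannoprotein, ran from 0.10 through 0.42 to 0.95, with a mean of 0.47 ± 0.33 (adjusted p = 0.0451). Without single arrays the means stayed between 0.51 and 0.69 for SED1 and between 0.37 and 0.54 for TIP1, but calls were lost. SED1 missed the threshold without array 3, 5 or 6 (adjusted p up to 0.0683), and TIP1 without array 1, 3, 5 or 6 (up to 0.151) and with centring by print-order run (0.0635).

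ECM33 (YBR078W), a GPI protein needed for normal wall architecture, was the lowest member. It ran from -1.03 to -0.70 on 5 arrays and stood at 0.27 on array 4, so it was lower on 5 of 6 arrays. The mean was -0.66 ± 0.47 with a median of -0.80 (adjusted p = 0.0195). It was at -0.85 without array 4 (adjusted p = 0.00297), and missed the threshold without array 3, 5 or 6 (up to 0.0749).

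The 4 GPI protein genes that did not pass had SDs from 0.43 to 0.80, each larger than its mean. CWP2 stood between -0.15 and 0.17 on arrays 1 to 3 and between 1.25 and 1.65 on arrays 4 to 6, with a mean of 0.68 ± 0.80 (adjusted p = 0.0714). It passed without array 2 (0.0366), without array 3 (0.0491) and with quantile normalization (0.0474). CWP1, which like CWP2 encodes a mannoprotein of the wall, had a mean of 0.17 ± 0.53. CCW12, the gene of one of the most abundant wall proteins, was at or below 0.0077 on 4 arrays but at 0.89 and 0.62 on arrays 4 and 6, with a mean of 0.21 ± 0.43. TIR1, a member of the family induced by cold and low oxygen, ran from -0.69 on array 1 to 0.92 on array 2 (mean 0.10 ± 0.61).

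Of the 4 Pir genes, 2 rose and the other two did not pass, with a median of 0.49. PIR3 (YKL163W) ran from 0.65 through 1.13 to 1.76 and PIR1 (YKL164C) from 0.41 through 0.68 to 1.26. Both were above 0 on 6 of 6 arrays, and PIR3 exceeded PIR1 on each. The mean of PIR3 was 1.18 ± 0.43 (adjusted p = 0.00069, 2.27-fold) and that of PIR1 0.73 ± 0.32 (adjusted p = 0.00554, 1.66-fold). HSP150 and CIS3, which encode the other Pir proteins of the list, were lowest on array 3 at -0.68 and -0.65 and highest on array 6 at 1.02 and 0.73. Their means of 0.20 ± 0.63 and 0.26 ± 0.52 did not pass (adjusted p = 0.553 and 0.354). Pir proteins share repeated stretches, and how far the spot of one gene also caught the transcript of another was not tested.

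Of the 3 glucan synthesis genes 1 rose and 2 did not pass. GSC2, also known as FKS2, encodes the catalytic subunit of glucan synthase that cells induce under stress, and FKS1 the one used in normal growth. GSC2 ran from 0.05 on array 6 through 0.51 to 0.95 on array 3, with a mean of 0.50 ± 0.35 (adjusted p = 0.0387). FKS1 ran from -0.31 through 0.12 to 0.38, around 0, with a mean of 0.06 ± 0.31 (adjusted p = 0.825, 95% interval -0.24 to 0.36). KRE6, needed to make the glucan that ties GPI proteins into the wall, stood at 0.60 on array 4 and between -0.18 and 0.02 on the other 5 arrays (mean 0.01 ± 0.30, adjusted p = 0.972). The GSC2 call was lost without array 1, 3, 4 or 5 (adjusted p up to 0.133), and its mean was 0.23 with centring by print-order run (0.167).

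Of the 3 chitin synthases 2 rose and 1 did not pass, with a median of 0.50. CHS1, which repairs the wall after cell separation, ran from 0.24 through 0.50 to 1.20, with a mean of 0.59 ± 0.33 (adjusted p = 0.0155). CHS3, which makes most of the chitin of the wall, ran from 0.23 through 0.42 to 1.07, with a mean of 0.50 ± 0.30 (adjusted p = 0.0298). Both had their highest value on array 4. CHS2, the synthase of the primary septum, stayed between -0.01 and 0.30 with the small SD of 0.12 (mean 0.19, adjusted p = 0.317). Without array 6 CHS1 missed the threshold (0.0511), and CHS3 did so without array 3, 4, 5 or 6 (up to 0.0765). With centring by print-order run the adjusted p was 0.0784 for CHS1 and 0.124 for CHS3.

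The 9 enzymes of glucan remodelling moved in different directions: 2 rose, 1 fell and 6 did not pass, and their median was 0.06. BGL2 (YGR282C), the major endoglucanase and glucan transferase of the wall, had the smallest SD of the members that rose at least 2-fold. It ran from 0.78 through 0.99 to 1.25 and was 2.00-fold higher, with a mean of 1.00 ± 0.21 (adjusted p = 0.000461). GAS5, a glucan-elongating transferase of the Gas family, ran from 0.09 on array 1 through 0.64 to 0.94 (mean 0.55 ± 0.30, adjusted p = 0.0189). The GAS5 call was lost without array 3 or 5 (up to 0.0588) and with centring by print-order run (0.0531).

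SCW11 (YGL028C), a glucanase-like protein of daughter cells that acts in cell separation, ran from -0.79 through -0.54 to -0.30, below 0 on 6 of 6 arrays. Its mean was -0.55 ± 0.17 (adjusted p = 0.0111). GAS3, a Gas family member, stood between -0.77 and -0.34 on arrays 1, 2, 3 and 5 and between -0.08 and 0.01 on arrays 4 and 6. Its mean of -0.39 ± 0.33 did not pass (adjusted p = 0.0868), although it did with array weights (0.0366).

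The remaining remodelling genes did not pass. SCW10 had the smallest SD of all members and was below 0 on 6 of 6 arrays, at a mean of -0.14 ± 0.07 (adjusted p = 0.448), while its relative SCW4 stood at 0.06 ± 0.21. EXG1, the major exoglucanase, was at 1.18 on array 4 and between -0.02 and 0.20 on the others (mean 0.31 ± 0.44). CRH1 and UTR2 encode the transglycosylases that link chitin to glucan. CRH1 was highest on arrays 1 and 2, at 0.67 and 0.76, and negative on arrays 5 and 6, with a mean of 0.26 ± 0.41. UTR2 lay at -0.42, -1.19 and -0.39 on arrays 1, 3 and 5 and at 0.78, 0.54 and 0.84 on arrays 2, 4 and 6, which left a mean of 0.03 ± 0.82.

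Of the 8 integrity pathway genes, 3 rose and 5 did not pass, with a median of 0.17. At the membrane, the sensor gene WSC1 (YOR008C) ran from 0.41 through 0.66 to 0.93, higher on 6 of 6 arrays, with a mean of 0.66 ± 0.21 (adjusted p = 0.00537). MID2, the other sensor gene, ran from -0.32 through 0.01 to 0.54 and did not pass (mean 0.09 ± 0.31, adjusted p = 0.700). PKC1 and BCK1, the first kinases of the chain, stood at 0.18 ± 0.37 and 0.16 ± 0.32 (adjusted p = 0.477 and 0.505).

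Further down the cascade, MKK1 ran from 0.05 through 0.44 to 0.69 (mean 0.43 ± 0.22, adjusted p = 0.0407), and MKK2 from -0.70 through -0.20 to 0.20 (mean -0.21 ± 0.33, adjusted p = 0.364). SLT2 (YHR030C), the MAP kinase gene, ran from 0.27 on array 5 through 0.76 to 0.94 on array 3, and its mean was 0.65 ± 0.29 (adjusted p = 0.00822, 1.57-fold). RLM1, the gene of the transcription factor itself, ran from -0.78 on array 4 to 0.34 on array 5 (mean -0.07 ± 0.41, adjusted p = 0.820). The calls of WSC1 and SLT2 held without each array in turn. MKK1 passed without array 2 but not without any other array (up to 0.114), and with centring by print-order run its mean was 0.16 (0.224).

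CRG1 (YHR209W) ran from 0.15 through 0.46 to 1.69. It was above 1 on arrays 5 and 6 alone, and its mean was 0.72 ± 0.64 (adjusted p = 0.0308). Without array 3, 4, 5 or 6 it missed the threshold (up to 0.116), and with centring by print-order run it had an adjusted p of 0.136.

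Comparing roles among the members, the wall proteins lay above the enzymes and kinases on most arrays. Over the 14 GPI and Pir genes, the median on single arrays ran from 0.15 to 0.86. Over the 15 glucan and chitin enzymes it ran from 0.07 to 0.51, and over the 5 kinases from -0.14 to 0.65. The wall protein median exceeded that of the enzymes on 5 of 6 arrays, by 0.37 ± 0.25 on average with a difference of -0.02 on array 1, and that of the kinases on 6 of 6 arrays, by 0.35 ± 0.24. Enzymes and kinases differed by -0.01 ± 0.20, less than the spread between arrays. Within the enzymes, the chitin synthase median exceeded that of glucan synthesis on 6 of 6 arrays, by 0.33 ± 0.21. These class differences were not tested, because the members were chosen with earlier results known. The order did not hold in the further lists described below. There the median was -0.01 for wall proteins, 0.06 for glucan enzymes and helpers, 0.06 for chitin genes and 0.15 for pathway genes. The median of the member wall proteins exceeded that of the further wall proteins on 6 of 6 arrays, by 0.56 ± 0.28.

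**Figure D2:**
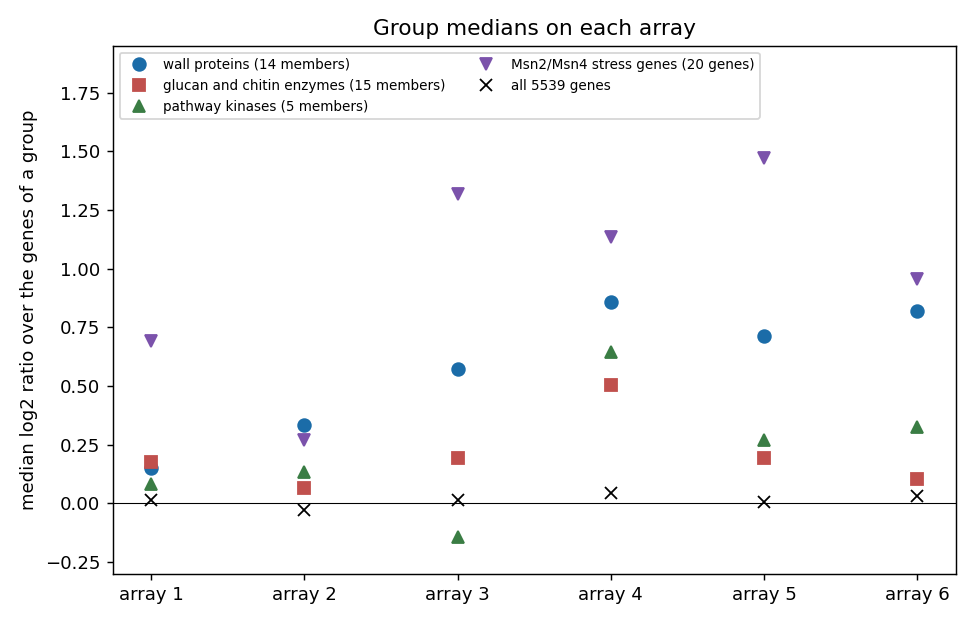
Median centred log2 ratio (vertical axis) over the genes of a group on each of the 6 arrays (horizontal axis), for 3 member roles, for 20 stress genes regulated by Msn2 and Msn4 and for all 5539 genes. The medians of all genes lie between -0.03 and 0.04, and those of the wall proteins between 0.15 and 0.86.

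Related genes were then compared with each other within the same arrays, as the difference of their log2 ratios in 14 pairs (exact two-sided sign-flip permutation test, adjusted over the pairs). None (0) of the pairs passed after adjustment, and 6 had an unadjusted p of 0.0312, the smallest that 6 arrays allow, with an adjusted p of 0.0729. A pair could have passed only if most of the 14 had reached that smallest p. Not passing therefore says little about a single pair. In the 6 pairs at the smallest p, the difference had 1 sign on 6 of 6 arrays. PST1 exceeded ECM33 by 2.60 ± 0.96, between 1.68 and 3.71. GAS5 exceeded GAS3, the difference GAS3 minus GAS5 being -0.94 ± 0.46, and WSC1 exceeded MID2 by 0.56 ± 0.47. PIR1 minus PIR3 was -0.46 ± 0.29, FKS1 minus GSC2 was -0.44 ± 0.42, between -1.25 and -0.10, and CHS1 minus CHS2 was 0.41 ± 0.30.

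In the other 8 pairs the sign varied between arrays. MKK1 minus MKK2 was 0.64 ± 0.50, positive on 5 of 6 arrays (exact permutation p = 0.0625, adjusted p = 0.109). CHS2 minus CHS3 was -0.31 ± 0.27 with the same p. CHS1 and CHS3 differed by 0.09 ± 0.14, between -0.15 and 0.22 (exact permutation p = 0.188). HSP150 minus CIS3, at -0.06 ± 0.30, ran from -0.44 to 0.29. For TIP1 minus TIR1, CRH1 minus UTR2 and CWP1 minus CWP2 the SD exceeded the mean difference, and SCW4 minus SCW10 was 0.20 ± 0.22.

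**Figure D3:**
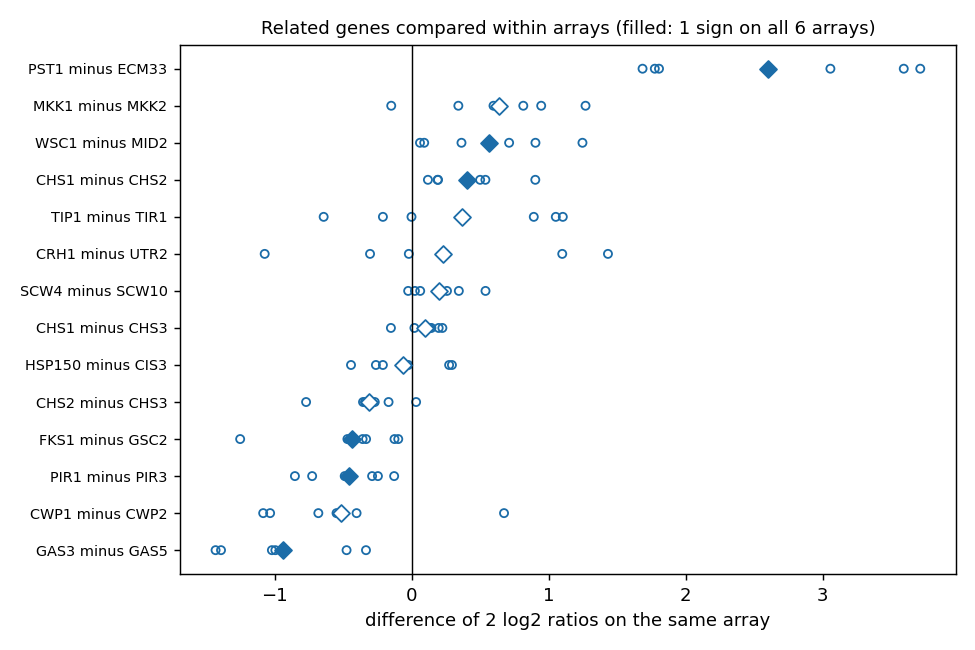
Difference of the log2 ratios of 2 related genes on the same array (horizontal axis) for 14 pairs. Circles are the 6 arrays and diamonds the means, filled where all 6 arrays have 1 sign. PST1 minus ECM33 has the largest mean, 2.60, and GAS3 minus GAS5 the lowest, -0.94.

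Which arrays carried the higher ratios differed between members. On both arrays with a deposited median below 0, arrays 4 and 6, the centred ratio was above that of all other arrays for 11 members, 28.9% of them, beside 17.2% of all genes. These were SED1, CCW12, PIR1, PIR3, HSP150, KRE6, CHS1, CHS3, GAS3, WSC1 and PKC1. For MID2 and RLM1, 2 of the 38 members, both arrays lay below all others, a lower share than the 705 of all 5539 genes. In the 4 arrays with a deposited median above 0 alone, 8 members rose and 2 fell. The part of the offset in these ratios was not tested.

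**Figure D4:**
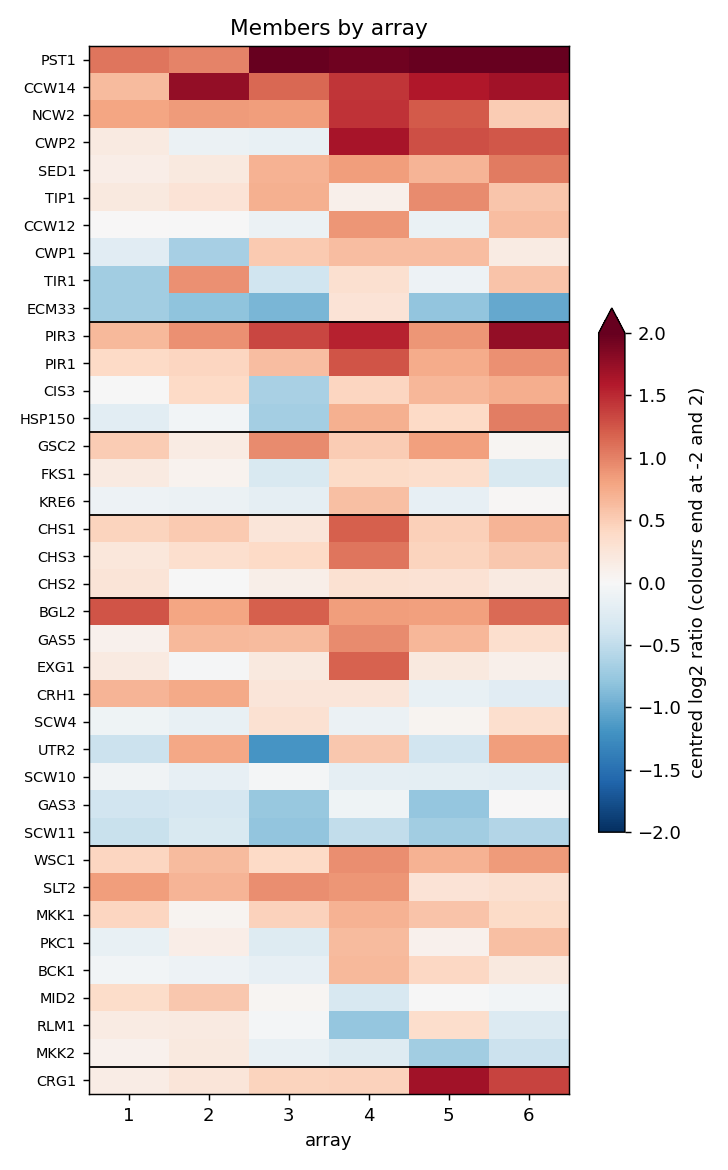
Centred log2 ratio (colour) of the 38 measured members (rows, separated by role) on arrays 1 to 6 (columns). CCW12, HSP150 and PKC1 are highest on arrays 4 and 6, PST1 on arrays 3 and 5, and UTR2 is below 0 on arrays 1, 3 and 5 and above 0 on the others.

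Other genes of the same processes were counted from lists written from general knowledge of yeast, with earlier results of these data known. The shares of these lists therefore do not stand for such genes at large. Of 23 further integrity pathway genes, 4 rose (17.4%, where 9.41% of all genes rose) and 19 did not pass, with a median of 0.15. At an unadjusted p under 0.05 (limma), 6 of the 23 were higher and 1 lower, where 17.4% of all genes were higher and 12.2% lower. ROM2, an exchange factor that activates Rho1, stood at 0.75 ± 0.47, and PKH2, a kinase upstream of Pkc1, at 0.69 ± 0.24. MSG5, a phosphatase that acts on Slt2, stood at 0.68 ± 0.49, and SAC7, a GTPase-activating protein of Rho1, at 0.45 ± 0.16 (adjusted p from 0.00466 to 0.0273).

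Of 22 further wall protein genes, 4 rose (18.2%, where 9.41% of all genes rose) and 18 did not pass. At an unadjusted p under 0.05 (limma), 6 of the 22 were higher and 3 lower, where 17.4% and 12.2% of all genes were. Their median of -0.01 was near that of all genes. YGP1 stood at 1.58 ± 0.95, SPI1 at 1.26 ± 0.65, FLO9 at 0.87 ± 0.62 and PIR5 at 0.77 ± 0.52 (adjusted p from 0.00207 to 0.0123). YGP1 and SPI1 are stress-induced surface proteins, and FLO9 has close copies from which its signal may not be separable.

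Of 21 further glucan enzymes and their helpers 1 rose, DFG5, which helps attach GPI proteins to the wall (0.51 ± 0.33, adjusted p = 0.0329). Of 14 genes for chitin precursors and chitin synthase partners 1 rose, CHS7, needed for the export of Chs3 from the endoplasmic reticulum (0.57 ± 0.41, adjusted p = 0.0289). The shares, 4.76% and 7.14% beside the 9.41% of all genes, rest on 1 gene each. At an unadjusted p under 0.05 (limma), 3 of the 21 were higher and 1 lower. Of the 14, 4 were higher and 0 lower at that threshold. Over all genes, 17.4% were higher and 12.2% lower. None (0) of 9 measured cell separation genes and none (0) of 20 protein mannosylation genes passed (limma). At an unadjusted p under 0.05 there was 1 in each, DSE2 at -0.46 ± 0.39 (adjusted p = 0.0616) and KTR1 at 0.30 ± 0.26 (adjusted p = 0.147), where 29.5% of all genes reached that threshold in either direction.

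Of 16 genes commonly listed as Rlm1-dependent, 13 of them members, 9 rose (56.25%, where 9.41% of all genes rose) and 7 did not pass. The median was 0.55 and was above 0 on 6 of 6 arrays, between 0.35 and 0.83. Among the 3 that are not members, PRM5, a pheromone- and wall stress-induced membrane protein gene, stood at 1.20 ± 0.56 (adjusted p = 0.00161), KDX1, a relative of SLT2, at 0.25 ± 0.38 and TOH1 at -0.26 ± 0.51. The list overlaps the members and is not independent of them. All of its genes that rose except PRM5 are members, so its count and median largely repeat theirs.

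General stress genes were counted beside them. Their list, too, was written with earlier results of these data known, so its share does not stand for Msn2 and Msn4 targets at large. Of 20 targets of the stress factors Msn2 and Msn4, 14 rose (70.0%, where 9.41% of all genes rose) and 6 did not pass. Their median was 1.06 and ran from 0.27 on array 2 to 1.47 on array 5. HSP12 stood at 2.44 ± 1.81, ALD3 at 2.41 ± 0.47, RTN2 at 1.84 ± 0.72 and TFS1 at 1.77 ± 1.21. Among these, HSP12 (4.40 and 4.65) and TFS1 (3.25 and 2.94) were highest on arrays 3 and 5, as was PST1. RTN2 was highest on arrays 3 and 6, at 2.66 and 2.46, and ALD3 on arrays 4 and 6, at 2.87 on both. The part of the general stress response in the wall gene ratios was not tested.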

How the data were processed

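Log2 ratios of 6 two-colour arrays were taken from the value table that the authors deposited, with 13056 spots per array. How images were read, background was corrected and ratios were normalized is not given in the sources used here, and no scanner intensities were used. The log base was taken as 2. Natural logarithms would make each value 1.44 times larger, with the same tests. Exact zeros (134 values, 0 at member spots) were set to missing. Each array was centred on the median of all its spots, and spots of a gene were averaged. Of the spots, 11138 carry 1 gene symbol in the platform annotation and 1918 have none. Symbols were updated through the R64 gene table, which matched all but 5 of 5539 genes. A value on at least 4 arrays was required. Whether a mean differed from 0 was tested by limma 3.58.1 (lmFit, eBayes; R 4.3.3), with Benjamini-Hochberg adjustment over all genes at 0.05. The fit was first tested on simulated data, in which genes varied independently of each other. It recovered 25.4% of changes of 0.5 on the log2 scale, 95.5% of changes of 1 and 100% of changes of 2. Of its 157 calls, 10 were false. The data gave 836 calls, so the adjusted threshold was stricter in the simulation, and recovery in the data may differ. A gene that did not pass may still have changed by about 0.5.

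The members and gene lists were chosen with earlier results of these data known. All members are named. From each other list, up to 4 genes past the threshold are named by size, or the 1 with the smallest adjusted p if none passed. KDX1 and TOH1 were named after their values were seen. Alternatives were no centring (as deposited), scaling of arrays to an equal spread, quantile normalization, zeros kept, robust empirical Bayes, array weights, centring of 48 runs of consecutive spots (print-order runs), a value on all arrays, and leaving out each array. Splitting arrays by the sign of the deposited median was added after seeing the data. Promoter sequences were not analysed here. Figures were drawn with matplotlib 3.10.9.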

Additional observations from a re-analysis of the deposited data

Results flagged for a closer look

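In 4 of the 38 members, 1 array lay far from the other 5, and in each it was array 4. Chance alone marks about 1 in 20 groups of this size, but the share of all genes so marked was not counted. Whether 4 of 38 is more than among all genes is therefore not known. Array 4 had the widest spread over all spots, with a median absolute deviation of 0.530, followed by array 3 at 0.524. ECM33 stood at 0.27 on array 4 and between -1.03 and -0.70 elsewhere, KRE6 at 0.60 against -0.18 to 0.02, CHS3 at 1.07 against 0.23 to 0.53, and EXG1 at 1.18 against -0.02 to 0.20. Without array 4 the mean of ECM33 was -0.85 (limma, adjusted p = 0.00297) and that of CHS3 0.39 (adjusted p = 0.0669). A cause was not tested.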

How the results depend on the processing

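The count of members that rose, 16, was 5 in the values as deposited, 9 with centring by print-order run and 8 in the 4 arrays with a deposited median above 0 alone, and it ran from 9 to 17 when single arrays were left out, with 10, 9 and 10 without array 3, 5 and 6. The count that fell, 2, was 0 as deposited and ran from 1 to 2 without single arrays. Over all genes, the 836 calls became 246 as deposited and 480 in those 4 arrays, and 456, 518 and 528 without array 3, 5 and 6. The causes were not tested, although each subset also has fewer arrays. In arrays 4 and 6 alone the class medians were 0.90 for wall proteins (0.84 GPI, 0.97 Pir), 0.54 for kinases and 0.48 for the pathway. In the other 4 arrays they were 0.36 for wall proteins, 0.02 for kinases and 0.20 for the pathway. The median of the glucan remodelling genes ran from 0.00073 to 0.26 without single arrays, the highest without array 3, and was -0.04 with centring by print-order run, and that of glucan synthesis from -0.0063 to 0.13. With the remaining alternatives the counts of members stayed within 1 of those reported. No called member changed sign under any alternative. The arrays form 1 group, each holding both strains, so every ratio already pairs mutant and wild type within an array.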
